A study of Rattus norvegicus with 8 samples.

Results

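Immediate early genes were followed in 8 pituitary samples from lactating Wistar rat dams. The set was 10 genes: Fos, Fosb, Jun, Junb, Egr1, Egr2, Nr4a1, Nr4a2, Atf3 and Btg2. They were found as the non-control spots whose gene name on the array equals one of these symbols. In this way 9 of the 10 genes had a probe, with 11 probes in all of the 30367 on the array. Fosb had none under its symbol and was not analysed here. Of the 9 genes, 8 were well above background on at least 4 of the 8 arrays and entered the fit, among 17361 genes tested. Egr2 did not pass this filter and is described on its own.

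The study compared dams exposed to TCDD, a dioxin that activates the aryl hydrocarbon receptor, with control dams. Each group held 4 samples from dams of the Wistar strain at postpartum day 7. All dams were lactating, and the pituitary was put into RNA stabilizer at once. The labels give no dose, route or day of exposure and do not say what the controls received. RNA was labelled with 1 dye and each sample was hybridised to its own array, so a value describes 1 sample.

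Immediate early genes are transcribed within minutes of a stimulus, without new protein synthesis, when kinase cascades and cyclic AMP reach factors such as SRF and CREB that already sit at their promoters. Most of their transcripts are short-lived, so their amounts follow recent events in a cell. In the pituitary they respond to hypothalamic releasing hormones. Nr4a1 in corticotrophs is a target of corticotropin-releasing hormone and acts on Pomc, and Egr1 in gonadotrophs is a target of gonadotropin-releasing hormone and acts on Lhb.

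The promoters of Egr1, Nr4a1, Nr4a2, Junb and Btg2 are shown because promoter elements are where those signals act. Whether the elements bear on the levels measured here was not tested. The sequences are RefSeq's on the rat build GRCr8, each running from 250 bases before to 50 bases after the transcription start, 5′ to 3′ on the gene's own strand. A window was on hand for 7 of the 10 genes, and not for Fos, Jun and Atf3. Capitals mark the core of the cyclic AMP response element (TGACG, or CGTCA where it lies on the other strand), the full element (TGACGTCA, which contains the core on both strands) and the CArG box, the core of the element bound by SRF.
Egr1 (chr18:26736828-26737127, plus strand): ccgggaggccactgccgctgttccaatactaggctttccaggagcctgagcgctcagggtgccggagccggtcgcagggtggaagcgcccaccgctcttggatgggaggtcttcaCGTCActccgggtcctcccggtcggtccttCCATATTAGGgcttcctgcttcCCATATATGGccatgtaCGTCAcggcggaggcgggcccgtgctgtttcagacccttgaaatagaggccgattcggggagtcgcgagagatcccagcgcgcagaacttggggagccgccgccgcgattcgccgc
Nr4a1 (chr7:134259888-134260187, plus strand): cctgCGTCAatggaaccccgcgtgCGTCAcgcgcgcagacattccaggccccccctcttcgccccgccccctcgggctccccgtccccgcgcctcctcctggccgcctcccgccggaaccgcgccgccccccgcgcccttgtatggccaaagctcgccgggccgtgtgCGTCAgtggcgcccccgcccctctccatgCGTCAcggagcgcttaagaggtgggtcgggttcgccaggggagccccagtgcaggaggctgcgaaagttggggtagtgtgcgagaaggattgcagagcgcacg
Nr4a2 (chr3:62104838-62105137, minus strand): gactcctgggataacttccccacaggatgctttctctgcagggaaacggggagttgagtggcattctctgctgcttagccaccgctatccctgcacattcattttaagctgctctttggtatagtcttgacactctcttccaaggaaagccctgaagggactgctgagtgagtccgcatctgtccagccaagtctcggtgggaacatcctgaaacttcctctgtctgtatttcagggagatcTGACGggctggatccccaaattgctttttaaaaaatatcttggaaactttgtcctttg
Junb (chr19:40080876-40081175, plus strand): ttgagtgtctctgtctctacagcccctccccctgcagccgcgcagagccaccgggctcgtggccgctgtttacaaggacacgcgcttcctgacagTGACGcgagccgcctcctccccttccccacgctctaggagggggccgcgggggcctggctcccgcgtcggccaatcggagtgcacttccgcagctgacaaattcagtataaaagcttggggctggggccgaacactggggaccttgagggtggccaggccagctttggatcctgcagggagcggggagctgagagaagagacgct
Btg2 (chr13:48087641-48087940, minus strand): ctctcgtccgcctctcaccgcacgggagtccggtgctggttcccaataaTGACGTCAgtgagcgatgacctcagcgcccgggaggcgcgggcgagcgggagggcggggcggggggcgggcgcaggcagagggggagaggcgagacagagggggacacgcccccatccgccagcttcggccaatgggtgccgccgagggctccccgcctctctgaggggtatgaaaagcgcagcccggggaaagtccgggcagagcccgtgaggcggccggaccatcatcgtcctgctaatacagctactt

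Egr1 held 2 CArG boxes, at -105 to -96 and at -83 to -74 relative to the start, and 2 cyclic AMP response cores. Nr4a1 held 4 such cores and no CArG box. Junb and Nr4a2 held 1 core each, and Btg2 held the full element at -201 to -194. Of the 7 windows, 6 held a core on either strand, against 21.2% of 33469 rat promoter windows of the same length. A CArG box was in 2 of the 7, Egr1 and Egr2, against 1.64% of all windows. The full element was in 1 of the 7, against 1.83%. The AP-1 site TGANTCA was in 0 of the 7, against 7.33%, and the EGR site GCGNGGGCG was in 2, Nr4a1 and Btg2, against 4.98%. These are matches of letters in a window, described without a test.

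The 8 arrays had close overall quality. The 75th percentile of processed signal, used to scale each array, lay between 765 and 897 on the TCDD arrays, against 805 and 932 on the control arrays. Between 71.1% and 73.9% of spots were well above background. Cyp1a1, an enzyme gene that the aryl hydrocarbon receptor induces, was well above background on 4 of 4 TCDD arrays and on 0 of 4 control arrays. It was at least 7.28-fold higher in TCDD pituitaries, a bound that was not itself tested. Here the TCDD mean is set against the mean, over control arrays, of the lowest signal well above background or the probe's own, whichever is higher. In limma's fit, which used the dim control values as measured, its log2 change was 3.98 (limma adjusted p = 0.028). This call was kept in 8 of 19 other settings. The log2 change of Cyp1a1 stayed above 0 in all 19 (1.04 with normexp background correction to 4.21), and the adjusted p reached 0.367. The hormone genes Pomc, Gh1 and Prl, which define the labelled tissue, were well above background on 4 of 4 TCDD and 4 of 4 control arrays. All TCDD arrays were on 1 slide and all control arrays on another, so slide and exposure cannot be told apart in any difference between the groups.

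No difference between TCDD and control pituitaries passed the test for any of the 8 immediate early genes. In limma's fit over 17361 genes, 0 of 8 passed an adjusted p of 0.05, and 0 of 8 had an unadjusted p under 0.05, against 10.7% of all genes. Over all genes tested, 0.0806% passed the adjusted threshold, 0.0576% higher and 0.023% lower in TCDD pituitaries. No immediate early gene had TCDD and control values that did not overlap, against 7.1% of all genes. Jun and Nr4a1 had a TCDD mean above the control mean and the other 6 a lower one, where 43.6% of all genes had a lower one. The 8 genes had a median log2 change of -0.15 beside 0.02 over all genes. It was 0.10 without control 3 and 0.02 without TCDD 1, so single arrays set its sign. In bulk tissue, fewer cells of a type and less RNA per cell cannot be told apart. Levels below are log2 values relative to the array's 75th percentile, so that 0 is the signal of a fairly bright probe. The samples are the replicates (n = 4 in each group), and the labels do not say whether each is a separate dam. All p-values are two-sided, and the exact permutation test over the 8 arrays can give no p under 0.0286.

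**Figure D1:**
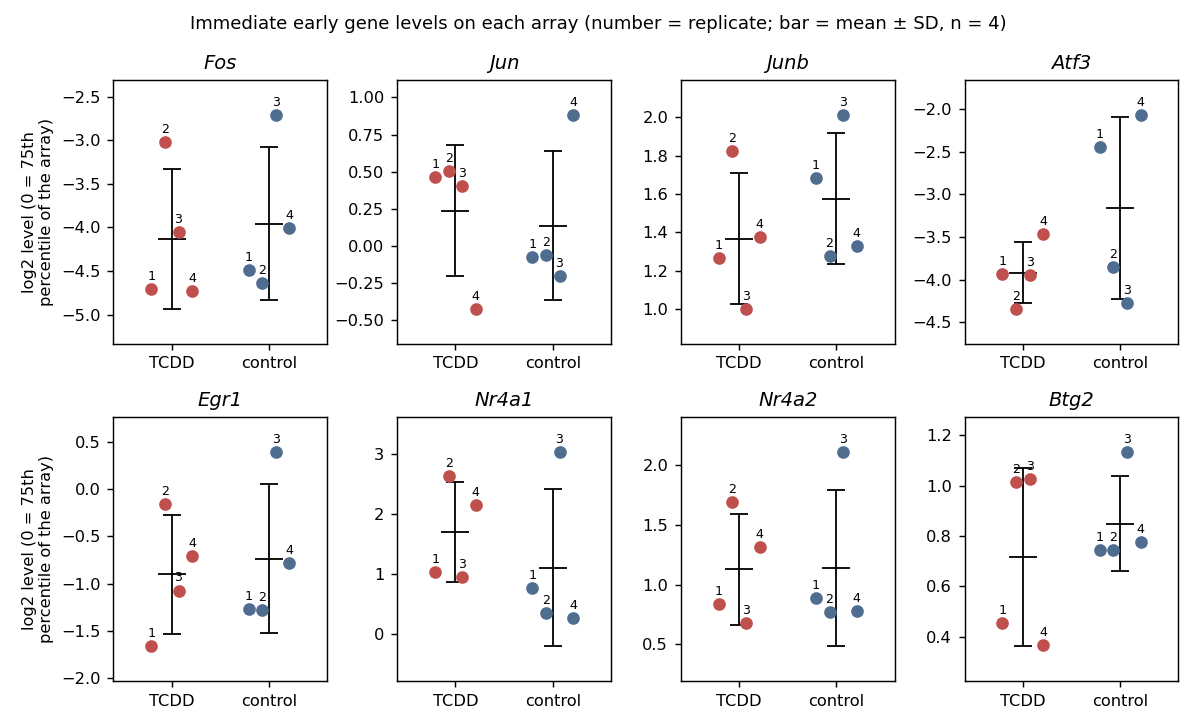
Levels of the 8 measured immediate early genes, as log2 of processed signal relative to the array's 75th percentile, 1 panel per gene with its own axis. Points are the 4 TCDD and the 4 control arrays with their replicate numbers, and bars are the mean and SD. The groups overlap in every panel, and control replicate 3 is the highest array of the 8 for 6 of the 8 genes.

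Fos encodes the partner of JUN in the AP-1 factor and is the best known marker of recent cell activation. Its level was -4.71, -3.02, -4.05 and -4.73 on TCDD arrays 1 to 4, against -4.49, -4.64, -2.70 and -4.00 on control arrays 1 to 4. TCDD 2 and control 3 stood well above the other arrays of their groups, and the remaining values of both groups ran through each other. The log2 change was -0.17 (SE 0.51, 95% confidence interval -1.35 to 1.02, limma adjusted p = 0.947, exact permutation p = 0.686). The interval reaches past a doubling at one end and a halving at the other. Its probe lies on rn4 chromosome 6, from 109561941 to 109562000 on the plus strand, and its processed signal was 32.1 to 94.5 on TCDD arrays and 35.0 to 132 on control arrays.

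Jun encodes the other subunit of the classical AP-1 dimer. Its level was 0.46, 0.50, 0.40 and -0.42 on the TCDD arrays, against -0.07, -0.06, -0.20 and 0.88 on the control arrays. Here the odd arrays were TCDD 4, which was low, and control 4, which was high, so the arrays highest in Fos were not those that stood apart. Its change was 0.10 (SE 0.29, interval -0.57 to 0.77, limma adjusted p = 0.944).

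Junb encodes a JUN relative that limits JUN's activity in many settings. Its level was 1.27, 1.82, 1.00 and 1.38 on the TCDD arrays, against 1.68, 1.27, 2.01 and 1.33 on the control arrays. Control 3 was again the highest and TCDD 2 the next, with control 1 close behind them. Its change was -0.21 (SE 0.21, interval -0.70 to 0.28, limma adjusted p = 0.794).

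Atf3 encodes a stress-induced repressor of the ATF family. Its level was -3.93, -4.34, -3.94 and -3.46 on the TCDD arrays, against -2.45, -3.85, -4.27 and -2.07 on the control arrays. Control 1 and control 4 lay above all other arrays, while TCDD 2 and control 3, the highest in Fos, were the lowest of their groups. The SD was 1.07 in control pituitaries, against 0.36 in TCDD pituitaries. The change was -0.76 (SE 0.49, interval -1.88 to 0.36, limma adjusted p = 0.643, exact permutation p = 0.257). It was -0.40 without control 4 and -1.13 without control 3.

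Egr1 encodes a zinc finger factor induced by growth factor and releasing hormone signals. Its brighter probe had levels of -1.66, -0.16, -1.07 and -0.71 on the TCDD arrays, against -1.27, -1.28, 0.39 and -0.78 on the control arrays. TCDD 2 and control 3 were the 2 highest arrays, as in Fos. Its change was -0.17 (SE 0.43, interval -1.17 to 0.83, limma adjusted p = 0.935). A second Egr1 probe, which starts 1115 bases upstream on rn4 chromosome 18, gave -0.14 (SE 0.44) in a fit over 19950 probes.

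The 2 Egr1 probes ranked the arrays alike. Their within-group deviations had r = 0.98 over the 8 arrays, and the difference between their levels spread over 0.36 log2 units. The brighter probe was printed as 10 spots on each array, and the median coefficient of variation over these spots was 3.51%. Egr1 spanned 4.14-fold over the 8 arrays.

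Egr2, the EGR relative known for its role in Schwann cells, was not well above background on any of the 8 arrays. On TCDD arrays its levels were -7.57, -7.13, -7.13 and -7.39, against -7.22, -7.52, -6.45 and -6.55 on control arrays. Each lay below its own array's lowest signal well above background, which ran between -6.44 and -6.03 over the 8 arrays. No more than 3 of its 10 spots were well above background on any array. These values therefore have no order, and no fold is given.

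Nr4a1 encodes an orphan nuclear receptor, NUR77, that mediates the Pomc response in corticotrophs. Its level was 1.02, 2.64, 0.95 and 2.14 on the TCDD arrays, against 0.76, 0.34, 3.03 and 0.27 on the control arrays. The values fell into a high set of 3 arrays, control 3, TCDD 2 and TCDD 4, and a low set of the other 5, with a gap of 1.12 between them. The processed signal in the high set was 4757 and 3969 on the TCDD arrays and 7010 on the control array. Its change was 0.59 (SE 0.67, interval -0.95 to 2.13, limma adjusted p = 0.818, exact permutation p = 0.486), which admits anything from a 0.519-fold to a 4.36-fold ratio. The change was 1.23 without control 3, 0.27 without TCDD 2, 0.31 without control 4 and 0.34 without control 2. The probe was printed as 10 spots per array, with a median coefficient of variation of 3.54%, and the 8 arrays spanned 6.79-fold. The variation over spots leaves out labelling, hybridisation and handling, so it is no measure of the error between samples.

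Nr4a2, the NURR1 receptor of the same family, had levels of 0.83, 1.69, 0.68 and 1.31 on the TCDD arrays, against 0.89, 0.77, 2.11 and 0.78 on the control arrays. Its 3 highest arrays were those of Nr4a1, in the same order. Its change was -0.0081 (SE 0.35, interval -0.81 to 0.79, limma adjusted p = 0.998). A second probe for Nr4a2, 518 bases away on rn4 chromosome 3, had r = 0.99 with the first and a change of 0.06 (SE 0.35).

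Btg2 encodes an antiproliferative protein that slows the cell cycle and aids mRNA decay. Its level was 0.46, 1.01, 1.03 and 0.37 on the TCDD arrays, against 0.74, 0.74, 1.13 and 0.78 on the control arrays. The TCDD arrays fell into 2 higher and 2 lower values that lay on both sides of 3 close control values, and control 3 was the highest of all. Its change was -0.13 (SE 0.18, interval -0.54 to 0.28, limma adjusted p = 0.849). This was the narrowest interval of the 8 genes.

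**Figure D2:**
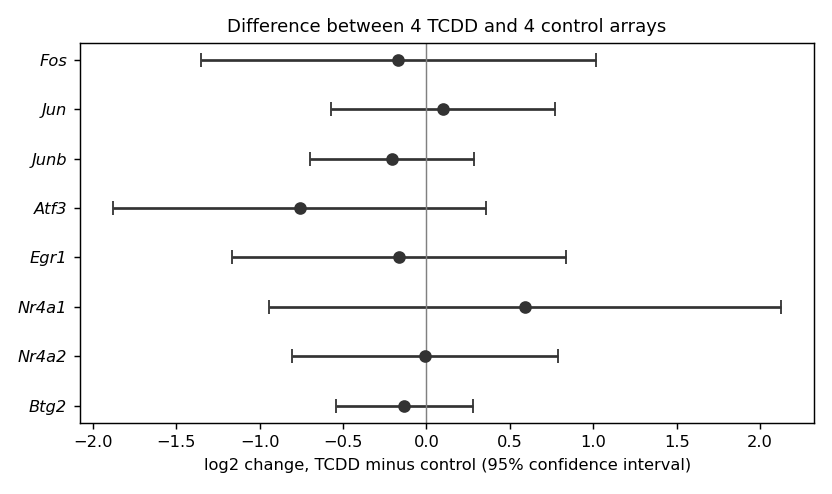
Log2 change of each measured immediate early gene, TCDD minus control, with its 95% confidence interval from limma (4 TCDD and 4 control arrays). Every interval includes 0, from the narrowest, -0.54 to 0.28 for Btg2, to the widest, -0.95 to 2.13 for Nr4a1.

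The signs of the changes of Fos, Jun, Egr1 and Nr4a2 rested on single arrays. Leaving out control 3 gave a change of 0.25 for Fos, 0.21 for Egr1, 0.32 for Nr4a2 and -0.01 for Jun. Leaving out TCDD 1 also turned Fos (0.03), Egr1 (0.09) and Nr4a2 (0.09), leaving out TCDD 3 turned Nr4a2 (0.14), and leaving out TCDD 4 turned Fos (0.03). Atf3, Junb, Btg2 and Nr4a1 kept their direction whichever array was left out. No immediate early gene passed the adjusted threshold in any of these fits.

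The immediate early genes tended to a wide spread between samples of the same group. The SD of the log2 level within groups was 1.10 for Nr4a1, 0.84 for Fos, 0.80 for Atf3, 0.71 for Egr1, 0.56 for Nr4a2, 0.47 for Jun, 0.34 for Junb and 0.28 for Btg2. Over all 17361 genes the median SD was 0.146 and the 95th percentile 0.54. The SDs of 5 of the 8 genes lay above that percentile, and Nr4a1 lay above the 99th (0.965). Nr4a1 varied more than 99.4% of genes, and Btg2, the steadiest of the set, more than 80.6%. Each gene was also set against the 1000 genes nearest to it in mean level. Among these, the SD was smaller than that of Nr4a1 in 100%, of Egr1 in 99.1%, of Nr4a2 in 98.8%, of Atf3 in 98% and of Jun in 97.8%. For Fos the share was 97.1%, for Junb 96.4% and for Btg2 93.3%. Junb and Btg2, the least variable of the set, were thus also more variable than most genes of like level. A wide spread was not found in this set alone. In 6 lists of related genes, described below, the median SD ran from 0.12 to 0.31, beside 0.64 over the 8 genes. Hes1, a gene of these lists named here for its spread and outside the naming rule, had an SD of 1.26.

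**Figure D3:**
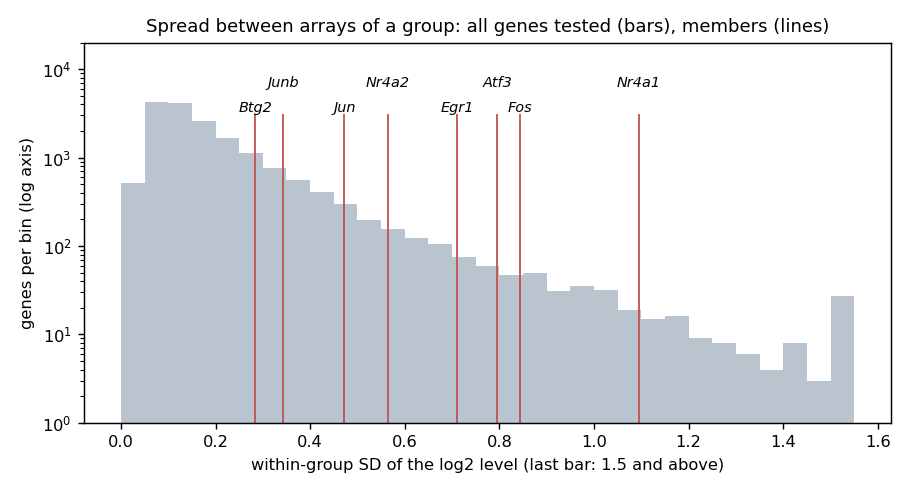
Distribution of the within-group SD of the log2 level over 17361 genes (bars, number of genes per bin on a log axis; the last bar holds 1.5 and above), with the 8 immediate early genes as vertical lines. Most genes lie near the median of 0.146, and the immediate early genes lie between 0.28 for Btg2 and 1.10 for Nr4a1.

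The spread was not scattered over the arrays. Control 3 was the highest of the 8 arrays for Fos, Junb, Egr1, Nr4a1, Nr4a2 and Btg2. TCDD 2 was the highest TCDD array for Fos, Jun, Junb, Egr1, Nr4a1 and Nr4a2. The mean standardised deviation of the 8 genes from their group means was 0.83 on TCDD 2, against -0.45 to -0.16 on the other TCDD arrays, and 0.84 on control 3, against -0.68 to 0.06 on the other control arrays. Each group thus had 1 high array.

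**Figure D4:**
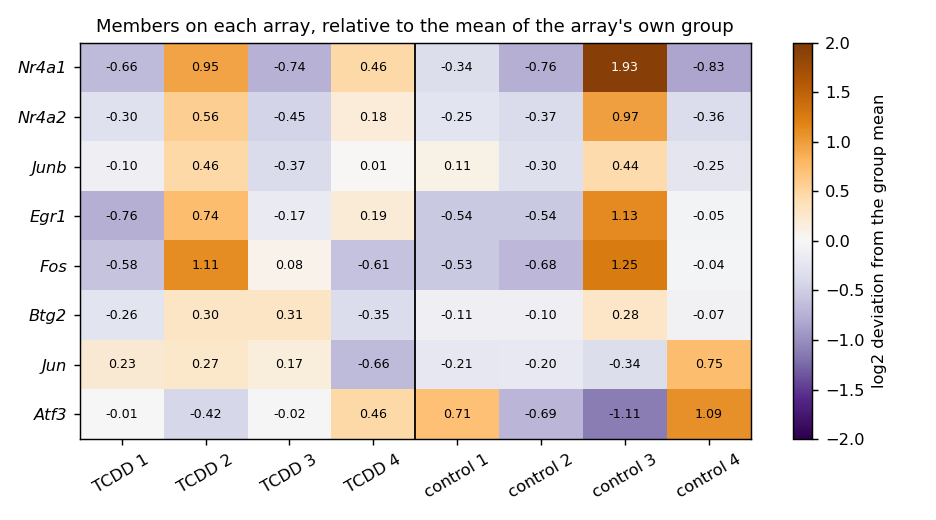
Log2 deviation of each immediate early gene from the mean of its own group on each of the 8 arrays, TCDD arrays left and control arrays right. TCDD 2 and control 3 are high for Fos, Junb, Egr1, Nr4a1 and Nr4a2, while Jun is high on control 4 and Atf3 on control 1 and control 4.

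Markers of cell types were summed on the same arrays. Leukocyte markers, of which 10 of 12 were above background with Cd3e and Cd79b not, had summed levels of 5.73 to 9.80 times the 75th percentile signal on TCDD arrays, against 7.23 to 9.95 on control arrays. Their score on an array, the mean log2 deviation of the markers from their mean over the 8 arrays, was lowest on TCDD 2 (-0.22) and control 3 (-0.21), against -0.03 to 0.19 on the other 6 arrays. Anterior pituitary hormones, 7 of 7 above background, summed to 1277 to 1652 on TCDD arrays, against 1433 to 1444 on control arrays. They scored 0.11 on TCDD 2 and 0.12 on control 3, the highest arrays of their groups. The other TCDD arrays scored -0.23 to 0.01 and the other control arrays -0.06 to 0.10, so control 1 (0.10) was close to control 3. The part of either list in the immediate early gene levels was not tested.

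Erythrocyte markers, 6 of them above background, scored 0.65 on TCDD 2 and -0.62 on control 3, with sums of 438 to 665 on TCDD arrays, against 304 to 551 on control arrays. The other TCDD arrays scored -0.01 to 0.52 and the other control arrays -0.68 to 0.24, and the median change of these markers was 0.65, so the 2 high arrays differed here as their groups did. Posterior lobe and neural markers, 9 of 11 above background without Gfap and Mog, scored -0.31 on TCDD 2 and 0.44 on control 3, with sums of 8.81 to 11.6 on TCDD arrays, against 8.66 to 13.1 on control arrays. Endothelial, stromal and folliculostellate lists scored between -0.20 and 0.08 on these 2 arrays.

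Correlation between the genes was computed on deviations from the group means, so that a difference between TCDD and control adds nothing to it. Over the 28 pairs of the 8 genes the mean Pearson r was 0.27, beside 0.0051 over all pairs of the 17361 genes. Of the 28 pairs, 11 had r above 0.7 (39.3%), against 5.54% of all gene pairs. The pairs within Fos, Junb, Egr1, Nr4a1 and Nr4a2, a group picked out after the values were seen, ran from 0.71 to 0.99 in all 10 cases. Without TCDD 2 and control 3, with the group means taken again, the same 10 pairs ran from -0.57 to 0.97, with a mean of 0.21. Most of this likeness thus rested on those 2 arrays. Without them the mean over all 28 pairs was 0.07.

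**Figure D5:**
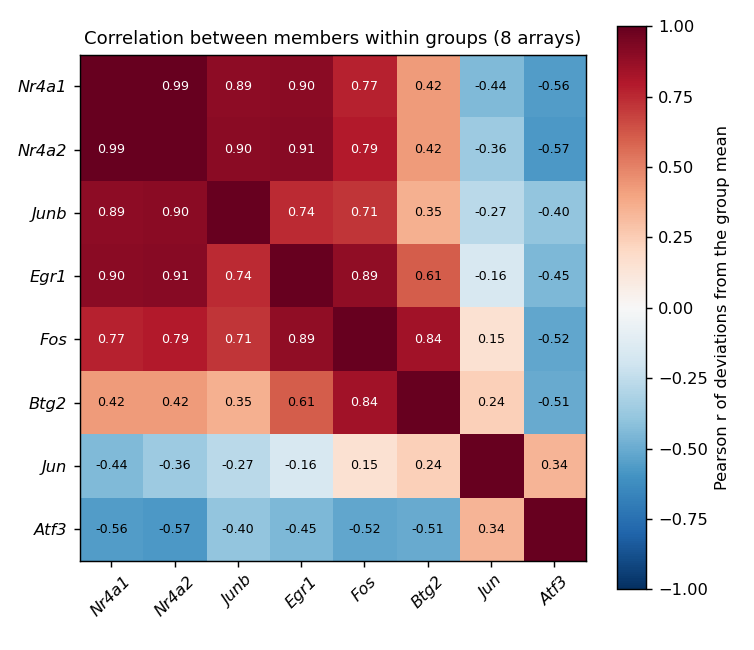
Pearson r between each pair of immediate early genes, from deviations from the group mean over 8 arrays (4 TCDD, 4 control). Fos, Junb, Egr1, Nr4a1 and Nr4a2 form a block of values from 0.71 to 0.99, and 6 of the 7 pairs with Atf3 are below 0; without TCDD 2 and control 3, 6 of these 7 pairs are above 0.

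Single pairs were tested by permuting one gene within groups, which gives 576 arrangements and no p under 0.00174, with adjustment over the 28 pairs. Junb and Nr4a2 had r = 0.90 (exact permutation p = 0.00174, adjusted p = 0.0324) and Spearman rho = 0.95 (exact permutation p = 0.00347, adjusted p = 0.0648). Without the 2 arrays farthest from the median of Junb, r was 0.66, or 0.70 with the group means taken again. Egr1 and Nr4a2 had r = 0.91 (exact permutation p = 0.0156, adjusted p = 0.0874) and rho = 0.69 (exact permutation p = 0.109, adjusted p = 0.438). Their r was 0.51 without the 2 farthest arrays, or 0.48 with the group means taken again. These 2 pairs held their sign on the 6 remaining arrays, at a smaller size. The 3 highest arrays of Nr4a2 were those of Nr4a1, with a gap of 0.42 to the next. The p-values of its 2 pairs thus carry the limit given below for Nr4a1, and no conclusion is drawn from them. The adjusted p of 0.0324 for Junb and Nr4a2 was shared with the pairs of Nr4a1 with Junb and with Nr4a2, and rested on them.

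Fos showed how far the likeness depended on the 2 high arrays. With Egr1 it had r = 0.89 (exact permutation p = 0.0191, adjusted p = 0.0891) and rho = 0.69 (exact permutation p = 0.0903, adjusted p = 0.438). It had r = 0.39 with Egr1 without TCDD 2 and control 3. With Junb it had r = 0.71 (exact permutation p = 0.0799, adjusted p = 0.199) and rho = 0.45 (exact permutation p = 0.33, adjusted p = 0.731), and r = -0.57 without them. With Btg2, r was 0.84 (exact permutation p = 0.0104, adjusted p = 0.0728) and rho 0.76 (exact permutation p = 0.0486, adjusted p = 0.34). Without these 2 arrays, r with Btg2 was 0.79. The relation of Fos with Junb therefore rested on the 2 arrays, whereas that with Btg2 changed little without them.

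Nr4a1 and Nr4a2 were the closest pair. Since Nr4a1 lies in a high set of 3 arrays and a low set of 5, its coefficients mainly set these sets against each other. No exact p is given for them. No conclusion is drawn from the adjusted p of 0.0324, named above, that its pairs with Junb and with Nr4a2 shared. Over the 8 arrays Nr4a1 and Nr4a2 had r = 0.99, and of the other 17360 genes 1 had a higher r with Nr4a1. Over the 6 arrays without TCDD 2 and control 3, where TCDD 4 still lay above the rest, r was 0.97. Of the 13 pairs with Jun or Atf3, 3 were above 0, and Atf3 ran from -0.57 with Nr4a2 to 0.34 with Jun. The signs of the Atf3 pairs also rested on the 2 high arrays: without TCDD 2 and control 3, 6 of its 7 pairs were above 0, from 0.28 with Jun to 0.52 with Egr1, and that with Btg2 was -0.14.

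Genes around the immediate early genes in the same signalling were taken as 6 lists of 101 genes, of which 91 were measured. Of these 91, 0 passed an adjusted p of 0.05 in limma's fit and 9 had an unadjusted p under 0.05, against 10.7% of all genes tested. Among other AP-1 and ATF genes (11 of 11 measured), 8 had a change above 0 and 3 below, with a median of 0.03. The smallest p was that of Atf4, the factor of the integrated stress response, with -0.30 (SE 0.13, limma adjusted p = 0.464). Maff (-0.34), Atf2 (0.06) and Fosl2 (0.17) followed.

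Relatives and corepressors of the EGR and NR4A factors were few above background. Egr3, Egr4 and Wt1 were not, and Nr4a3, the remaining NR4A receptor, had a change of 0.11 (SE 0.19). The corepressors of EGR factors, Nab1 and Nab2, had changes of -0.06 (SE 0.07) and -0.04 (SE 0.15). Of the 14 other rapidly induced transcription factors measured, 6 had a change above 0 and 8 below. They were led by Klf4 at -0.22 (SE 0.10), Id2, an inhibitor of basic helix-loop-helix factors, at 0.37 (SE 0.18), Csrnp1 at -0.25 and Klf10 at 0.22.

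Rapidly induced effectors numbered 23 measured genes, 11 above 0 and 12 below, with a median of -0.03. Cxcl2, a neutrophil chemokine, had levels of -5.63, -5.20, -5.22 and -5.63 on the TCDD arrays, against -4.39, -4.39, -4.72 and -4.39 on the control arrays. The lowest signal well above background was -6.44 to -6.03 on TCDD arrays, so Cxcl2 was dim there. Its groups did not overlap, and the change of -0.95 (SE 0.14) missed the threshold in limma's fit (adjusted p = 0.079). With array weights Cxcl2 passed it (-0.96, limma adjusted p = 0.0427), and with normexp background correction the change was -0.28. Over the other settings the adjusted p reached 0.469. Errfi1, whose product binds and restrains the EGF receptor, was also without overlap, at 0.90, 0.97, 1.11 and 0.96 on the TCDD arrays, against 1.25, 1.32, 1.34 and 1.33 on the control arrays (change -0.33, SE 0.06, limma adjusted p = 0.179). The kinase genes Pim1 and Plk2 had changes of 0.26 (SE 0.11) and 0.31 (SE 0.13).

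Feedback inhibitors of MAP kinase and cytokine signals numbered 15 measured genes, 6 above 0 and 9 below. Spry4, which restrains receptor tyrosine kinase signals, had levels of -2.06, -1.88, -2.11 and -2.18 on the TCDD arrays, against -2.57, -2.53, -2.59 and -2.28 on the control arrays. These did not overlap, and the change was 0.43 (SE 0.10, limma adjusted p = 0.214). The phosphatase genes Dusp8, Dusp6 and Dusp5 had changes of -0.35, -0.17 and -0.44. Among 25 upstream kinases and activators, 12 were above 0 and 13 below. The smallest p was that of Elk1, an SRF partner, at 0.24 (SE 0.08, limma adjusted p = 0.349, no overlap), followed by Crtc2 at 0.18, Crebbp at -0.25 and Map2k1 at 0.13. Over the 6 lists 4 of 91 genes had groups that did not overlap, beside the 7.1% over all genes.

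Some of these genes followed the immediate early genes from array to array. With the mean standardised deviation of the 8 genes, 8 of the 91 had r above 0.7 (8.79%), against 3.59% of 17353 genes. They are named here after their values were seen, and r is a description over the same 8 arrays. The mean they are set against was highest on TCDD 2 (0.83) and control 3 (0.84). For these genes r without those arrays was not computed. Ier2, an immediate early nuclear protein gene, had r = 0.92, Sik1, a cyclic AMP induced kinase gene, 0.92, Dusp1, the classical MAP kinase phosphatase gene, 0.88, and Plk3 0.87. Socs3 (0.82), Spred1 (0.77), Dusp8 (0.74) and Dusp5 (0.72) were the others. Sik1 had levels of 0.17, 1.33, 0.49 and -0.06 on the TCDD arrays, against 0.58, 0.43, 1.84 and 0.55 on the control arrays, so TCDD 2 and control 3 were its highest arrays too. Dusp1 was high on TCDD 2 (-3.40) and control 3 (-3.43), but also on TCDD 3 (-3.63) and control 4 (-3.66).

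The genes outside the set whose deviations were most like it were, by r over the 8 arrays, Slc7a6os (0.98), Fam13c (0.97), Slc38a1 (0.95), Slc20a1 (0.95), Kif18a (0.95), Tent5a (0.95), Fam120b (0.94) and Syncrip (0.94). These, and the lowest named below, are extremes picked from 17353 genes. Their r without TCDD 2 and control 3, the arrays where the set was highest, was not computed. Slc38a1 is a neutral amino acid transporter, Slc20a1 a phosphate transporter and Syncrip an RNA-binding protein. Tent5a, a poly(A) polymerase gene, had levels of 3.84, 4.49, 3.94 and 4.20 on the TCDD arrays, against 3.95, 3.70, 4.71 and 4.06 on the control arrays. The lowest r were those of Lipa (-0.99), lysosomal acid lipase, Ppp1r3c (-0.98), a glycogen-targeting subunit of protein phosphatase, Plscr2 (-0.97) and Myo18b (-0.97). Lipa had levels of -2.65, -3.05, -2.66 and -2.69 on the TCDD arrays, against -2.64, -2.51, -3.09 and -2.75 on the control arrays, low on the 2 arrays that were high in Fos and Egr1. None of these 12 genes passed limma's adjusted threshold between TCDD and control.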

How the data were processed

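Per the file headers, the scans were read with version 10.7.1.1 of Agilent's Feature Extraction software. The deposited values are linear intensities per spot, computed by the authors array by array: a processed intensity after background subtraction, in which dim spots may carry surrogate values, with the mean and background intensities and the flags. Probe coordinates are rn4, per the file headers.

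From these, log2 of the processed intensity was taken relative to each array's 75th percentile over the non-control spots (42877 of 44254). Outlier spots were left out and spots of a probe averaged. A probe was kept where it was well above background on at least 4 arrays, and a gene was represented by its kept probe with the highest mean. Genes were named through RefSeq (GRCr8): 18006 probes by accession, 2654 by symbol, 559 by an older symbol and 9148 by the file's own name. No spot was saturated (0).

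The groups, 4 TCDD and 4 control samples, were compared with limma 3.58.1 in R 4.3.3, with Benjamini-Hochberg adjustment over 17361 genes. The fit was tested on simulated data. Intervals are at 95%. The number of arrays limits the precision. Nothing in the labels says more of how samples of a group are related than that they are replicates, so the p-values reflect only how these samples scatter, which may in part be technical.

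The immediate early genes and the other gene lists were chosen with earlier results of these data known. Named were all 10 immediate early genes, up to 4 genes per related list with the smallest p, the 8 genes most and the 4 least like the set within groups, and checks of tissue and exposure. Genes named outside this rule are said to be. The alternatives tried were other background corrections, scalings, filters, probe summaries and variance models, array weights, the deposited table, a replicate block, and leaving out arrays. Leaving out both TCDD 2 and control 3 was chosen after seeing the data.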

Additional observations from a re-analysis of the deposited data

Results flagged for a closer look

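In a group of 4 arrays, an array was singled out where its gap to the nearest other array as a share of the group's range exceeded Dixon's 95% critical value. Among 86 groups (43 named genes in 2 groups), 8 met this. Chance gives about 5% for independent and unselected groups. Some of these genes were chosen for their likeness to the set over the same arrays, so the count cannot be set against that share. Jun was low on TCDD replicate 4, with a ratio of 0.891, and high on control replicate 4, with a ratio of 0.868. Nr4a2 was high on control replicate 3 (0.914), and so was Btg2 (0.919). Cxcl2 was low on control replicate 3 (0.998), at -4.72, while the other 3 control arrays were all at -4.39 after rounding. On TCDD replicate 2, Slc7a6os (0.835) and Slc38a1 (0.916) were high and Lipa (0.896) was low; these 3 genes were named for their likeness to the immediate early genes, which were high on the same array.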

How the results depend on the processing

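Across 12 alternatives and 8 fits without 1 array, 0 immediate early genes passed the threshold (lowest limma adjusted p 0.485), and 146 of 160 single-gene changes kept their direction. Nr4a2 turned to 0.0263 with the mean over probes, 0.0195 with array weights and 0.13 without both TCDD 2 and control 3; Fos turned to 0.0367 with array weights, and Jun to -0.10 without both arrays. Without 1 array the changes ran from -0.54 to 0.25 for Fos, -0.41 to 0.21 for Egr1, -0.20 to 0.32 for Nr4a2, -0.0134 to 0.35 for Jun, -1.13 to -0.40 for Atf3 and 0.27 to 1.23 for Nr4a1. The median change ran from -0.30 to 0.10 (-0.01 with array weights), and the mean correlation from 0.19 to 0.33 (0.0726 without both arrays). Over all genes, calls numbered 14 (10 higher, 4 lower), against 0 with normexp and quantile normalization (1076 higher and 846 lower at an unadjusted p under 0.05), 1 with quantile normalization (0 higher), 9 with median centring (5 higher), 4 with trend and robust variance, 30 with array weights, 1 with the deposited table (0 higher) and 0 without both arrays (834 and 508 unadjusted). Without 1 array they ran from 0 to 11: 0 without TCDD 1 or control 3, 1 without control 1 or control 2, 3 without TCDD 2 or TCDD 4, 6 without TCDD 3, and 11 without control 4. The cause was not tested.

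Same-numbered arrays of the groups did not deviate together (r of -0.02, -0.07, -0.03 and -0.10), and the fit with the replicate block called 0 genes (1071 higher and 443 lower unadjusted) and 0 immediate early genes.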
